A study of Homo sapiens with 32 samples.

Results

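SR proteins are splicing factors that bind exons through RNA recognition motifs and recruit the spliceosome through a domain rich in arginine and serine. The serines of that domain are phosphorylated by SRPK kinases in the cytoplasm and by CDC-like kinases (CLK) in the nucleus, and this phosphorylation governs where SR proteins sit in the nucleus and which exons they act on. Many SR genes also hold a conserved exon with a premature stop codon, through which the proteins limit their own transcripts by nonsense-mediated decay. A count per gene does not separate such transcripts from coding ones. The 10 SR genes described here, SRSF1 to SRSF7 and SRSF9 to SRSF11, were taken by name from 35238 genes. No measured value served as a criterion, but earlier results of these data were known when they were chosen. All 10 passed the filter on low values (CPM, reads scaled to a common library total, above 1 in at least 2 libraries), as did 17011 genes in all.

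They were measured by bulk RNA-seq in 4 human endometrial cancer cell lines: Ishikawa, labelled CTNNB1-wildtype, and Ishikawa-S33Y, SNGM and HEC265, labelled CTNNB1-mutated. How Ishikawa-S33Y was made is not given in the sources used here. Each line received vehicle (0.1% DMSO), the microtubule-stabilising taxane paclitaxel, SM08502 (an inhibitor of CLK kinases), or the 2 together, for 24 h, with 2 libraries for each of the 16 groups. Each drug was dosed at the 50% inhibitory concentration for viability of that line: 5.6 nM paclitaxel and 149 nM SM08502 in HEC265, 11.7 nM and 350.7 nM in SNGM, 6 nM and 85 nM in Ishikawa-S33Y, and 11 nM and 80 nM in Ishikawa. Effects compared between lines therefore come from different doses, and line and dose cannot be told apart. The 2 libraries of a group come from cells plated in duplicate, so p-values measure the spread between such platings, pooled over the 16 groups. That spread was unequal. It was taken as the root mean square log2 difference of the 2 libraries over 6083 genes (mean log2(CPM + 1) at least 5). It ran from 0.104 to 0.594 over the Ishikawa groups and from 0.183 to 0.406 over the SNGM groups. In Ishikawa-S33Y it ran from 0.077 to 0.252 and in HEC265 from 0.0699 to 0.12. A pooled spread is then too small for some groups and too large for others.

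The median depth of 30 libraries was 21.67 M reads (M, the mega prefix), and they ranged from 13.03 to 34.13 M reads. The second combination libraries of Ishikawa-S33Y and SNGM held 2.99 and 1.61 M reads. The lowest count of any SR gene in any library was 82 reads, for SRSF4 in the shallow SNGM combination library. Epithelial markers were present in every line (6 of 6 with a median above 1 CPM), and so was the Mullerian lineage marker PAX8, with medians of 114 to 421 CPM. The other Mullerian marker, EMX2, was near 0 in SNGM and HEC265 (medians of 0.746 and 0.188 CPM), and the fibroblast collagen COL1A1 was high in Ishikawa-S33Y (median 971 CPM) and present in Ishikawa (66.4 CPM). Of the 3 other fibroblast markers, none had a median above 3.79 CPM in any line, and CD3E and LUM had medians between 0 and 0.303 CPM.

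Per RefSeq (GRCh38.p14), the genes lie on 7 chromosomes: SRSF4 at chr1:29147743-29181900, SRSF10 at chr1:23964347-23980327, SRSF11 at chr1:70205696-70253052, SRSF7 at chr2:38743599-38751494, SRSF3 at chr6:36594362-36605600, SRSF9 at chr12:120461672-120469748, SRSF5 at chr14:69767142-69772005, SRSF1 at chr17:57989038-58007246, SRSF2 at chr17:76734115-76737411 and SRSF6 at chr20:43457896-43464243. SRSF3, SRSF6, SRSF7, SRSF10 and SRSF11 overlap no other annotated gene. SRSF2 overlaps MFSD11 and MIR636, SRSF4 overlaps MECR, SRSF9 overlaps GATC, and SRSF1 and SRSF5 each overlap an uncharacterised locus. The strand setting of the counting is not given in the sources used here, so reads of these 5 overlapping pairs may be shared. RefSeq lists 13 pseudogene copies of the SR genes. Of these, SRSF1P1, SRSF9P1 and SRSF10P1 have a row of their own and reached at most 0.268 CPM. Reads of copies without a row cannot be seen here.

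SRSF6 and SRSF10 were the SR genes called higher on SM08502 over the mean of the lines, and SRSF1 was among those called lower, so the 250 bases before the start of these 3 genes are shown (RefSeq, GRCh38.p14, 5′ to 3′ on the gene's strand, matches to the searched motifs in capitals). They are chr20:43457646-43457895 on the plus strand for SRSF6, chr1:23980328-23980577 on the minus strand for SRSF10 and chr17:58007247-58007496 on the minus strand for SRSF1.
SRSF6: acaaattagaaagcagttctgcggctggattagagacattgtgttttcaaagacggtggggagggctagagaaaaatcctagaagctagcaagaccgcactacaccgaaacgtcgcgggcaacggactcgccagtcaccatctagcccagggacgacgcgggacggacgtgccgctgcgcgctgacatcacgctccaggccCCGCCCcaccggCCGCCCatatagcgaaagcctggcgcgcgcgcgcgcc
SRSF10: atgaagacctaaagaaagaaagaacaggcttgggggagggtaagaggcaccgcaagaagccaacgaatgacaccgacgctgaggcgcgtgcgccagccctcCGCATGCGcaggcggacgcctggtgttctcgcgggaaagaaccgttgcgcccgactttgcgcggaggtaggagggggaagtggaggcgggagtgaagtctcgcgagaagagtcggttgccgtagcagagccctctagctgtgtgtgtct
SRSF1: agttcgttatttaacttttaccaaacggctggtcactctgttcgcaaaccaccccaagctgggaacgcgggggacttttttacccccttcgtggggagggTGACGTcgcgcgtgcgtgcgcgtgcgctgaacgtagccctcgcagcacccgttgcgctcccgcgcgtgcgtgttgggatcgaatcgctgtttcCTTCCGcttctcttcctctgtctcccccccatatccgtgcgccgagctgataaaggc
Matches were sought on both strands for the GC box GGGCGG, the CCAAT box, the cAMP response motif TGACGT, the ETS core CGGAAG, the NRF1 core CGCATGCG and the TATA element TATAA. SRSF6 holds 2 GC boxes, a motif found in 42.64% of the 35116 RefSeq windows of this length. SRSF10 holds 1 NRF1 core, found in 1.73% of all windows, which otherwise occurs among the SR genes before 1 start of SRSF7. SRSF1 holds TGACGT, found in 7.10% of all windows and shared with SRSF3 and SRSF5, and an ETS core, found in 16.48% and shared with SRSF4, SRSF5 and SRSF7. The CCAAT box was found only before SRSF3 among the SR genes (32.01% of all windows), and TATAA before SRSF3, SRSF7 and SRSF11 (18.93%). SRSF6 and SRSF10 thus share none of the 6 motifs in these windows. RefSeq windows were matched for 9 of the 10 genes (all but SRSF2), which have 11 windows in all.

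On vehicle, the lines differed in most SR genes. Calls here and below are from limma on log2(CPM + 1), two-sided, with Benjamini-Hochberg adjustment of p over all 17011 genes and a threshold of 0.05. Between HEC265 and Ishikawa-S33Y, 9 of 10 SR genes were called and all 9 were higher in HEC265, where 58% of all genes were called. The lowest count there under 15 alternatives was 6. SRSF1, SRSF6 and SRSF11 lost that call after quantile normalization (adjusted p = 0.434, 0.608 and 0.502, limma). Ishikawa-S33Y against Ishikawa gave 7 called, all lower in Ishikawa-S33Y, against 48.3% of all genes. SNGM against Ishikawa gave 7 (1 higher, 6 lower; 66.8% of all genes), HEC265 against Ishikawa 7 (4 higher, 3 lower; 63.3%), SNGM against Ishikawa-S33Y 7 (4 higher, 3 lower; 60.8%) and HEC265 against SNGM 9 (7 higher, 2 lower; 54.9%). The share of SR genes called lay above that of all genes in each of the 6 comparisons, by the least for SNGM against Ishikawa, and that difference was not tested. The called genes shared a direction in the first 2 comparisons. In the second, SRSF4 (0.03) and SRSF9 (0.17) were higher in Ishikawa-S33Y without being called. The median log2 difference of the 10 was 0.56 for HEC265 against Ishikawa-S33Y (-0.07 over all genes) and -0.41 for Ishikawa-S33Y against Ishikawa (-0.05 over all genes).

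Ishikawa libraries were made from 350 ng of RNA and the others from 500 ng, so input and line cannot be told apart. A score of long against ribosomal protein transcripts also moved with the line. That score, the mean log2(CPM + 1) of 18 long genes minus that of 80 ribosomal protein genes, was -0.06 and -0.17 in the HEC265 vehicle libraries, 0.12 and 0.57 in SNGM, -0.81 and -0.97 in Ishikawa-S33Y, and -2.37 and -1.98 in Ishikawa. With the score as a covariate, added after the values were seen, 4 SR genes were called between SNGM and Ishikawa and 4 between HEC265 and Ishikawa. Under that covariate SRSF2 and SRSF10 also lost their calls between Ishikawa-S33Y and Ishikawa (adjusted p = 0.0528 and 0.112, limma), and SRSF4 turned to a called deficit there (log2 difference -0.51) and against Ishikawa in SNGM (-0.87). Leaving out 1 library changed 3 of these counts by more than 1.5 times: SNGM against Ishikawa gave 4 without the second SNGM vehicle library, SNGM against Ishikawa-S33Y gave 4 without the second Ishikawa-S33Y vehicle library, and HEC265 against Ishikawa gave 4 without any 1 of its 4 libraries.

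**Figure D1:**
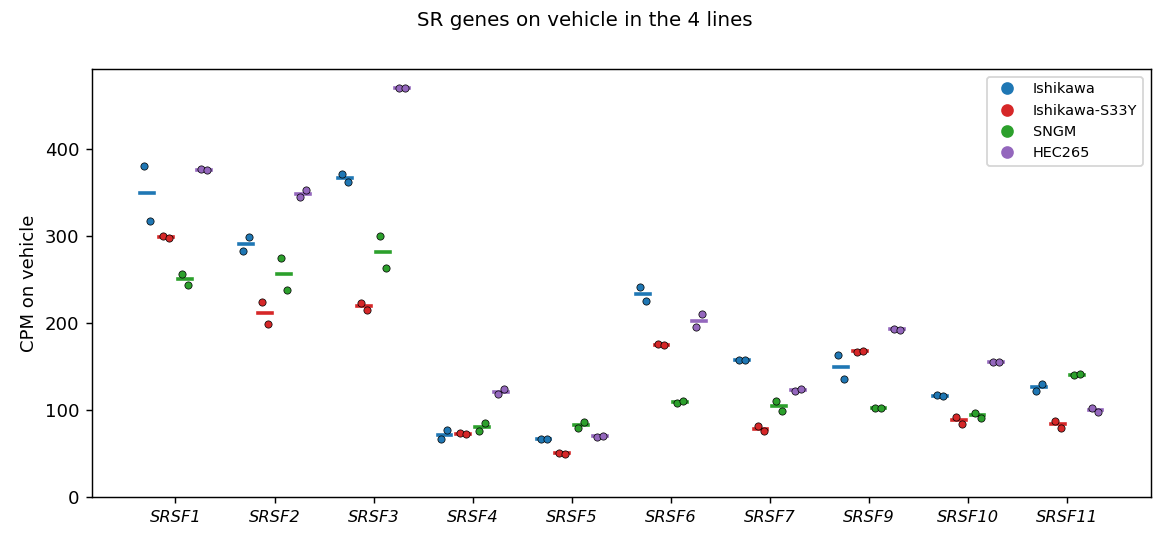
CPM of the 10 SR genes in the 2 vehicle libraries of each line (points) with their mean (short line), colours giving the line. HEC265 was highest for 6 genes, SRSF1, SRSF2, SRSF3, SRSF4, SRSF9 and SRSF10, and SRSF3 shows the widest gap, from 220 CPM in Ishikawa-S33Y to 471 CPM in HEC265.

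SM08502 moved SR genes in both directions. Over the mean of the 4 lines, 5 of 10 were called, with SRSF6 and SRSF10 higher and SRSF1, SRSF2 and SRSF4 lower. Of all genes, 22.6% were called higher and 15.8% lower in that comparison, so the 2 of 10 SR genes called higher lie near the background and the 3 of 10 called lower above it, without a test of that difference. The median log2 change of the 10 was -0.07, beside 0.05 over all genes tested. By line, HEC265 had 2 called higher and 0 lower (background 9.27% higher and 5.39% lower) and SNGM 0 higher and 2 lower (3.8% and 4.06%). Ishikawa had 2 higher and 3 lower (6.5% and 8.68%), and Ishikawa-S33Y 2 higher and 2 lower (18.5% and 10.6%). In bulk samples, fewer cells of a type and less RNA per cell cannot be told apart, and every change is relative to the library total.

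The single-line counts rest on few libraries and on a spread pooled over all lines. With a line's own libraries alone fitted, 0 SR genes were called in Ishikawa, 0 in SNGM and 5 in HEC265. In Ishikawa 2 SR genes were called without either vehicle library and 1 without the second SM08502 library. In SNGM 1 was called without the first vehicle library and 0 without the first SM08502 library, and in HEC265 0 were called without any 1 library. A left-out library leaves its group with 1 sample, which is then assumed to vary like the other groups. The length score also fell with SM08502 in HEC265, to -0.48 and -0.62, and in Ishikawa-S33Y, to -1.10 and -1.16. The calls of SRSF1, SRSF2, SRSF6 and SRSF10 over the mean of the lines held under all 26 alternatives, that covariate included.

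**Figure D2:**
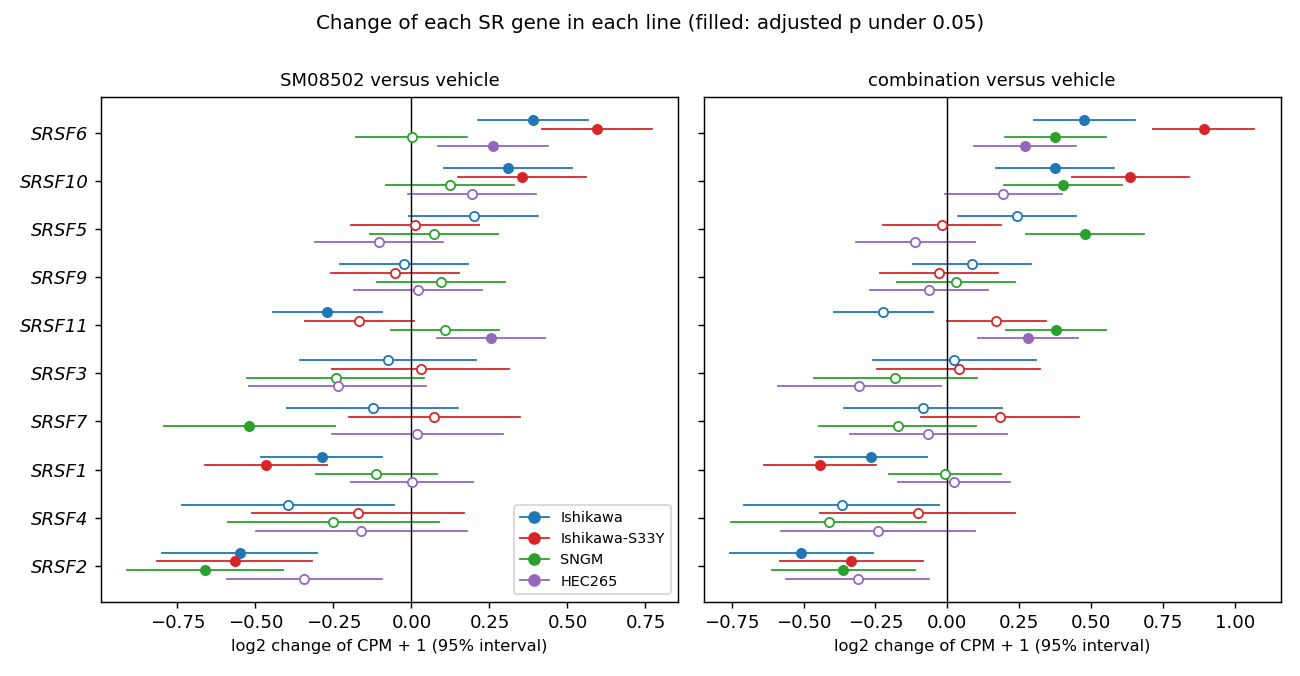
Log2 change of CPM + 1 against vehicle for each SR gene (vertical axis) in each line (colours), for SM08502 (left) and the combination (right), with 95% intervals from limma and filled points where the adjusted p was under 0.05. SRSF6 and SRSF10 lie at or right of 0 in all lines in both panels, and SRSF2 lies left of 0 throughout.

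SRSF2 (SC35), a component of nuclear speckles that is recurrently mutated in myelodysplastic syndromes, fell on SM08502. In Ishikawa it was at 283 and 300 CPM (299.8) on vehicle and at 196 and 201 CPM on SM08502. In Ishikawa-S33Y it was at 224 and 199 CPM on vehicle and at 138 and 147 CPM on SM08502. In both lines the groups did not overlap. In SNGM it was at 275 and 238 CPM on vehicle and at 144 and 181 CPM on SM08502, and in HEC265 at 345 and 353 CPM against 273 and 277 CPM. The drug libraries thus lay below the vehicle libraries in all 4 lines. The log2 change was -0.66 in SNGM, -0.57 in Ishikawa-S33Y and -0.55 in Ishikawa, each called, and -0.34 in HEC265, which missed the threshold (adjusted p = 0.0583, limma). Over the mean of the lines it was -0.53 ± 0.06 (SE), a fold of 0.693 (adjusted p = 6.29e-07, limma), and it ranged from -0.57 to -0.49 over 26 alternatives. The SNGM call was lost without the first SM08502 library (log2 change -0.50). With a line's own libraries alone fitted, the SNGM and Ishikawa calls were lost (adjusted p = 0.179 and 0.0823, limma).

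MFSD11, the gene that SRSF2 overlaps, did not pass the test on SM08502 in any line, with log2 changes of 0.08 to 0.25. Its mean in Ishikawa was 64.9 CPM on vehicle and 75.4 CPM on SM08502. On vehicle, SRSF2 stood at 349 ± 5.81 CPM (SD, n = 2) in HEC265, 291 ± 11.7 in Ishikawa, 257 ± 26.4 in SNGM and 212 ± 17.8 in Ishikawa-S33Y. No neighbours in that order differed past the threshold, while its ends did (log2 difference 0.72, adjusted p = 2.05e-05, limma).

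SRSF1 (SF2/ASF), which promotes the choice of 5′ splice sites and shuttles to the cytoplasm, fell in the Ishikawa pair of lines. In Ishikawa-S33Y its 4 values were 300.04 and 298 CPM on vehicle and 215 and 218 CPM on SM08502, a log2 change of -0.47 (adjusted p = 7.99e-04, limma), called under all 15 alternatives. In Ishikawa it was at 381 and 318 CPM on vehicle and 284 and 286 CPM on SM08502, with a log2 change of -0.29 (adjusted p = 0.0406, limma). The Ishikawa groups did not overlap, but the first vehicle library was far above the second, and without it the change was -0.16 (adjusted p = 0.386, limma). The call there was also lost without either SM08502 library (adjusted p = 0.0747 and 0.148, limma). In SNGM the drug libraries (217 and 247 CPM) overlapped the vehicle libraries (257 and 244 CPM), with a change of -0.11 that missed the threshold. In HEC265 they were at 369 and 386 CPM beside 377 and 377 CPM, with a change of 0.00 and an interval of -0.19 to 0.20. Over the mean of the lines the change was -0.22 ± 0.05 (SE; adjusted p = 9.27e-04, limma).

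On vehicle SRSF1 stood at 377 ± 0.389 CPM (SD, n = 2) in HEC265, 349 ± 44.6 in Ishikawa, 299 ± 1.32 in Ishikawa-S33Y and 250.3 ± 9.37 in SNGM, where only the last step was called (adjusted p = 0.0218, limma). That call was lost without either Ishikawa-S33Y library or without the second SNGM library. SRSF9 (SRp30c), a shorter relative of SRSF1 with a small arginine-serine domain, passed the test in no line with either drug. Its 32 values ran from 94.7 to 202 CPM, and its SM08502 changes from -0.05 to 0.09. On vehicle it was highest in HEC265 (193 ± 0.795 CPM) and lowest in SNGM (103 ± 0.128 CPM), with a log2 difference of 0.90 (adjusted p = 8.25e-08, limma). GATC, which SRSF9 overlaps, rose on SM08502 in Ishikawa-S33Y (0.27) and HEC265 (0.50), where SRSF9 was at -0.05 and 0.02.

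**Figure D3:**
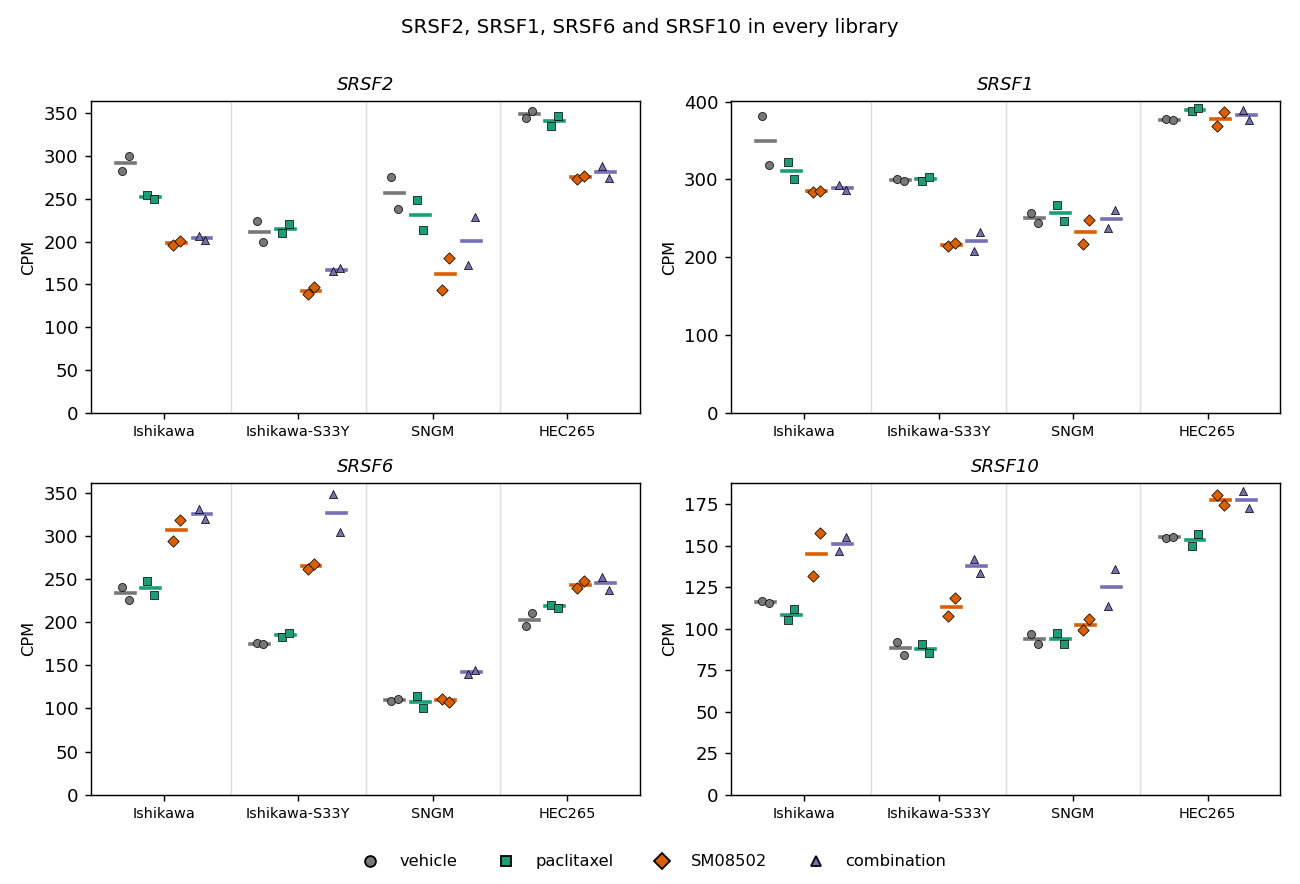
CPM of SRSF2, SRSF1, SRSF6 and SRSF10 in each of the 32 libraries, by line and treatment, with the mean of each pair as a short line. SRSF2 values on SM08502 and on the combination lie below vehicle values in every line, and SRSF6 and SRSF10 values on SM08502 lie above vehicle values in every line except for SRSF6 in SNGM.

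SRSF6 (SRp55), which with SRSF4 (SRp75) and SRSF5 (SRp40) forms a group of SR proteins with a pair of RNA recognition motifs, rose on SM08502. In Ishikawa it was at 241 and 226 CPM on vehicle and 294 and 318 CPM on SM08502, a log2 change of 0.39 (adjusted p = 0.00362, limma). In Ishikawa-S33Y it was at 176 and 175 CPM on vehicle and 262 and 268 CPM on SM08502, a change of 0.59 (adjusted p = 3.01e-05, limma). In HEC265 it was at 196 and 210 CPM on vehicle and 239 and 248 CPM on SM08502, a change of 0.26 (adjusted p = 0.0411, limma). None of these 3 pairs of groups overlapped. In SNGM the drug libraries (111 and 108 CPM) overlapped the vehicle libraries (108 and 111 CPM), and the change was 0.00, with an interval of -0.18 to 0.18. The Ishikawa-S33Y call held under all 15 alternatives. The Ishikawa call was lost without the second vehicle library (0.34) or the second SM08502 library (0.33). It was also lost with the Ishikawa libraries alone fitted (adjusted p = 0.156, limma). The HEC265 call was lost without any 1 of its 4 libraries, and re-centring each library on its median took the change there to 0.17 (adjusted p = 0.358, limma).

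The SM08502 effect on SRSF6 differed among the lines (F test in limma, adjusted p = 0.0127, where 12.4% of all genes were called), as did that on SRSF11, and the other 8 did not pass. Of the 10 SR genes, pairwise differences of the SM08502 effect called 0 between Ishikawa-S33Y and Ishikawa (background 2.43%), 0 between SNGM and Ishikawa (3.66%), 1 between HEC265 and Ishikawa (2.56%), 2 between SNGM and Ishikawa-S33Y (9.83%), 2 between HEC265 and Ishikawa-S33Y (5.66%) and 0 between HEC265 and SNGM (2.03%). With an unadjusted p under 0.05, limma gave 0, 3 and 2 for the 3 pairs with no call, in that order. For the first of them limma voom called 0, and its calls were not counted for the others. SRSF6 rose less in SNGM than in Ishikawa-S33Y (difference -0.59, adjusted p = 0.00363, limma). With both drugs SRSF6 was called in all 4 lines, and the combination groups did not overlap the vehicle groups. It reached 349 and 305 CPM in Ishikawa-S33Y (log2 change 0.89), 331 and 319 CPM in Ishikawa (0.48), 140.2 and 144 CPM in SNGM (0.38) and 253 and 237 CPM in HEC265 (0.27). The HEC265 call was lost without any 1 library or after median re-centring (adjusted p = 0.33, limma). The Ishikawa and SNGM calls were lost when that line's libraries alone were fitted (adjusted p = 0.0803 and 0.0621, limma). Over the mean of the lines SRSF6 changed by 0.31 ± 0.04 (SE) on SM08502 and by 0.50 ± 0.04 on the combination, a fold of 1.42. On vehicle it stood at 234 ± 11.1 CPM (SD, n = 2) in Ishikawa, 203 ± 10.1 in HEC265, 175 ± 0.962 in Ishikawa-S33Y and 109 ± 1.76 in SNGM, and every step was called. The HEC265 steps are close to the threshold: the log2 difference from Ishikawa (-0.20) was 0.01 after median re-centring, and that from Ishikawa-S33Y (0.21) was -0.05 after quantile normalization.

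SRSF4 was lower on both drug arms in all 4 lines without passing the test in any of them. Its SM08502 changes were -0.16 in HEC265, -0.25 in SNGM, -0.17 in Ishikawa-S33Y and -0.40 in Ishikawa, and the libraries of both arms lay below the vehicle libraries in every line. In Ishikawa it was at 66.7 and 76.7 CPM on vehicle and 63.6 and 46.0 CPM on SM08502. Over the mean of the lines it fell by 0.24 on the log2 scale (adjusted p = 0.0217, limma) and on the combination by 0.28 (adjusted p = 0.00692, limma). The first of these was lost without the second Ishikawa SM08502 library (adjusted p = 0.0686, limma), without the second Ishikawa vehicle library (0.0565) or without the second SNGM vehicle library (0.0541). The second became -0.11 with the length score as a covariate (adjusted p = 0.0691, limma). Without the SNGM combination library that held 82 SRSF4 reads, the combination change there was -0.18, from -0.41. MECR, which SRSF4 overlaps, also fell over the mean of the lines, by 0.24 on SM08502 and by 0.39 on the combination, and the part of shared reads was not tested. On vehicle SRSF4 stood at 121 ± 3.95 CPM in HEC265, 80.6 ± 6.84 in SNGM, 72.8 ± 0.524 in Ishikawa-S33Y and 71.7 ± 7.10 in Ishikawa (SD, n = 2), where the first step alone was called.

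SRSF5, whose transcript was first described as growth-induced in liver cells, passed the test on SM08502 in no line, with changes of -0.10 to 0.20. In SNGM it rose on the combination, from 79.5 and 86.5 CPM on vehicle to 123 and 110 CPM (109.5), while SM08502 alone gave 88.0 and 86.6 CPM. That change was 0.48 (adjusted p = 0.00200, limma) and was called under all 15 alternatives. HEC265 gave -0.11, Ishikawa 0.24 and Ishikawa-S33Y -0.02, none called. Its call on the combination over the mean of the lines (0.15, adjusted p = 0.0171, limma) was kept under 22 of 26 alternatives. It was lost after quantile normalization (adjusted p = 0.106, limma) and without the first HEC265 combination library (0.12), among others. On vehicle it was highest in SNGM (83.0 ± 4.92 CPM) and lowest in Ishikawa-S33Y (50.4 ± 1.07 CPM; SD, n = 2), and HEC265 (70.1 CPM) and Ishikawa (66.7 CPM) did not differ past the threshold.

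SRSF3 and SRSF7 bind transcripts for export through the receptor NXF1. SRSF3, the smallest SR protein, passed the test in no line with any drug, and its SM08502 changes were -0.24 in HEC265, -0.24 in SNGM, 0.03 in Ishikawa-S33Y and -0.08 in Ishikawa. In HEC265 its drug libraries (401 and 399 CPM) lay below the vehicle libraries (470 and 471 CPM), and in Ishikawa the SM08502 libraries were far apart, at 297 and 410 CPM. The 2 HEC265 changes, -0.24 on SM08502 and -0.31 on the combination, were called when HEC265 libraries alone were fitted. On vehicle SRSF3 had the widest range of the 10 between lines: 471 ± 0.607 CPM in HEC265, 367 ± 6.48 in Ishikawa, 282 ± 25.6 in SNGM and 219.6 ± 5.86 in Ishikawa-S33Y (SD, n = 2), with every step called. HEC265 exceeded Ishikawa-S33Y by a log2 difference of 1.10 (adjusted p = 4.24e-07, limma). The step between HEC265 and Ishikawa was lost without any 1 of its 4 libraries, and that between SNGM and Ishikawa turned from -0.38 to 0.39 with the length score as a covariate.

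SRSF7 (9G8), which carries a zinc knuckle beside its RNA recognition motif, fell on SM08502 in SNGM. It was at 111 and 99.0 CPM on vehicle and at 67.4 and 78.5 CPM on SM08502, without overlap, a log2 change of -0.52 (adjusted p = 0.0162, limma). That call was lost without the first vehicle library (-0.44, adjusted p = 0.158, limma), without the first SM08502 library (-0.41, adjusted p = 0.215, limma) and after median re-centring (-0.50, adjusted p = 0.0808, limma). The combination libraries of SNGM stood at 78.5 and 110 CPM (109.5), and the second overlapped the vehicle range. In the other lines the SM08502 change lay between -0.12 and 0.07. On vehicle SRSF7 was at 157.5 CPM in both Ishikawa libraries, 123 ± 1.15 CPM in HEC265, 105 ± 8.22 in SNGM and 78.5 ± 4.11 in Ishikawa-S33Y (SD, n = 2). Ishikawa-S33Y lay below Ishikawa by a log2 difference of -0.997 (adjusted p = 2.83e-06, limma), called under all 15 alternatives.

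SRSF10 (SRp38), which turns into a splicing repressor when it loses its phosphates in heat shock and mitosis, rose on SM08502. In Ishikawa it was at 117 and 116 CPM on vehicle and 132 and 158 CPM on SM08502, a log2 change of 0.31 (adjusted p = 0.0373, limma). In Ishikawa-S33Y it was at 92.3 and 84.1 CPM on vehicle and 108 and 118 CPM on SM08502, a change of 0.35 (adjusted p = 0.00978, limma). In SNGM it was at 96.9 and 91.0 CPM on vehicle and 99.0 and 106 CPM on SM08502, and in HEC265 at 155 and 155 CPM against 180.4 and 175 CPM, changes of 0.12 and 0.19 that were not called. All 4 lines had drug libraries above their vehicle libraries. The Ishikawa call was lost without either vehicle library (adjusted p = 0.116 and 0.158, limma), and without the second SM08502 library the change was 0.18 (adjusted p = 0.390, limma). The Ishikawa-S33Y call was lost without the second vehicle library (0.29, adjusted p = 0.115, limma) or the second SM08502 library (0.29, adjusted p = 0.118, limma), and after median re-centring (0.30, adjusted p = 0.108, limma). Over the mean of the lines the change was 0.25 ± 0.05 (SE; adjusted p = 4.67e-04, limma).

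With both drugs SRSF10 reached 142 and 133 CPM in Ishikawa-S33Y (log2 change 0.64), 147 and 156 CPM in Ishikawa (0.37) and 114 and 136 CPM in SNGM (0.40), each called. In HEC265 it reached 183 and 173 CPM, a change of 0.20 that was not called. The SNGM call was lost without the second vehicle library (0.36, adjusted p = 0.0756, limma) and without the shallow second combination library (0.28, adjusted p = 0.132, limma), and the Ishikawa call without its second vehicle or second combination library (adjusted p = 0.0610 and 0.0917, limma). On vehicle SRSF10 stood at 155 ± 0.246 CPM in HEC265, 116 ± 0.893 in Ishikawa, 94.0 ± 4.17 in SNGM and 88.2 ± 5.80 in Ishikawa-S33Y (SD, n = 2), where the last step did not pass.

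SRSF11 (p54), which associates with the 3′ splice site factor U2AF, moved in opposite directions between lines. On SM08502 it fell in Ishikawa, from 123 and 130 CPM (129.6) to 109 and 100.2 CPM (log2 change -0.27, adjusted p = 0.0331, limma). It rose in HEC265, from 102 and 98.1 CPM to 121 and 118 CPM (0.26, adjusted p = 0.0433, limma). In Ishikawa-S33Y the vehicle libraries were at 87.9 and 79.7 CPM and the drug libraries at 73.6 and 75.2 CPM (-0.17), and in SNGM at 140.1 and 142 CPM against 153 and 151 CPM (0.11), neither called. No groups overlapped in any line. The F test among lines was called (adjusted p = 0.0136, limma), and it became 0.0622 after median re-centring. The Ishikawa call was lost without either vehicle library (adjusted p = 0.0707 and 0.206, limma) and without the second SM08502 library (-0.21, adjusted p = 0.249, limma), and the HEC265 call without any 1 library or after median re-centring (0.16, adjusted p = 0.311, limma). On the combination SRSF11 rose in SNGM, to 172 and 195 CPM (0.38, adjusted p = 0.00343, limma), and in HEC265, to 125 and 119 CPM (0.28, adjusted p = 0.0203, limma). Ishikawa gave -0.22 and Ishikawa-S33Y 0.17, neither called. The SNGM call was lost without the shallow second combination library (0.29, adjusted p = 0.0659, limma), and the HEC265 call without any 1 library or after median re-centring (0.17, adjusted p = 0.223, limma). On vehicle it was at 141 ± 1.12 CPM in SNGM, 126 ± 5.00 in Ishikawa, 100.2 ± 2.98 in HEC265 and 83.8 ± 5.81 in Ishikawa-S33Y (SD, n = 2), and all steps but the first were called.

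Several of the vehicle steps above rest on single libraries, since leaving out 1 library ended the call. These were SRSF7 between Ishikawa and HEC265 (any 1 of the 4 libraries), SRSF7 between SNGM and Ishikawa-S33Y (the first SNGM or the second Ishikawa-S33Y library), and SRSF10 between Ishikawa and SNGM (the second SNGM library). They also were SRSF6 between Ishikawa and HEC265 (the first Ishikawa library or either HEC265 library) and between HEC265 and Ishikawa-S33Y (either Ishikawa-S33Y library or the second HEC265 library). SRSF11 between HEC265 and Ishikawa-S33Y needed the first HEC265 and the second Ishikawa-S33Y library. SRSF3 between Ishikawa and SNGM needed the first Ishikawa and the second SNGM library, and between SNGM and Ishikawa-S33Y the first SNGM library and both Ishikawa-S33Y libraries.

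Scaling also ended some of these steps. After median re-centring the log2 difference of SRSF11 between HEC265 and Ishikawa went from -0.33 to -0.11 (adjusted p = 0.296, limma), that of SRSF10 between SNGM and Ishikawa to -0.17 (0.295), that of SRSF3 between the same lines to -0.24 (0.244), that of SRSF7 between HEC265 and Ishikawa to -0.14 (0.508) and that of SRSF1 between SNGM and Ishikawa-S33Y to -0.14 (0.297). After quantile normalization SRSF11 between HEC265 and Ishikawa-S33Y went from 0.26 to 0.06 (adjusted p = 0.502, limma), SRSF3 between SNGM and Ishikawa-S33Y to 0.19 (0.149) and SRSF10 between HEC265 and Ishikawa to 0.23 (0.0530).

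**Figure D4:**
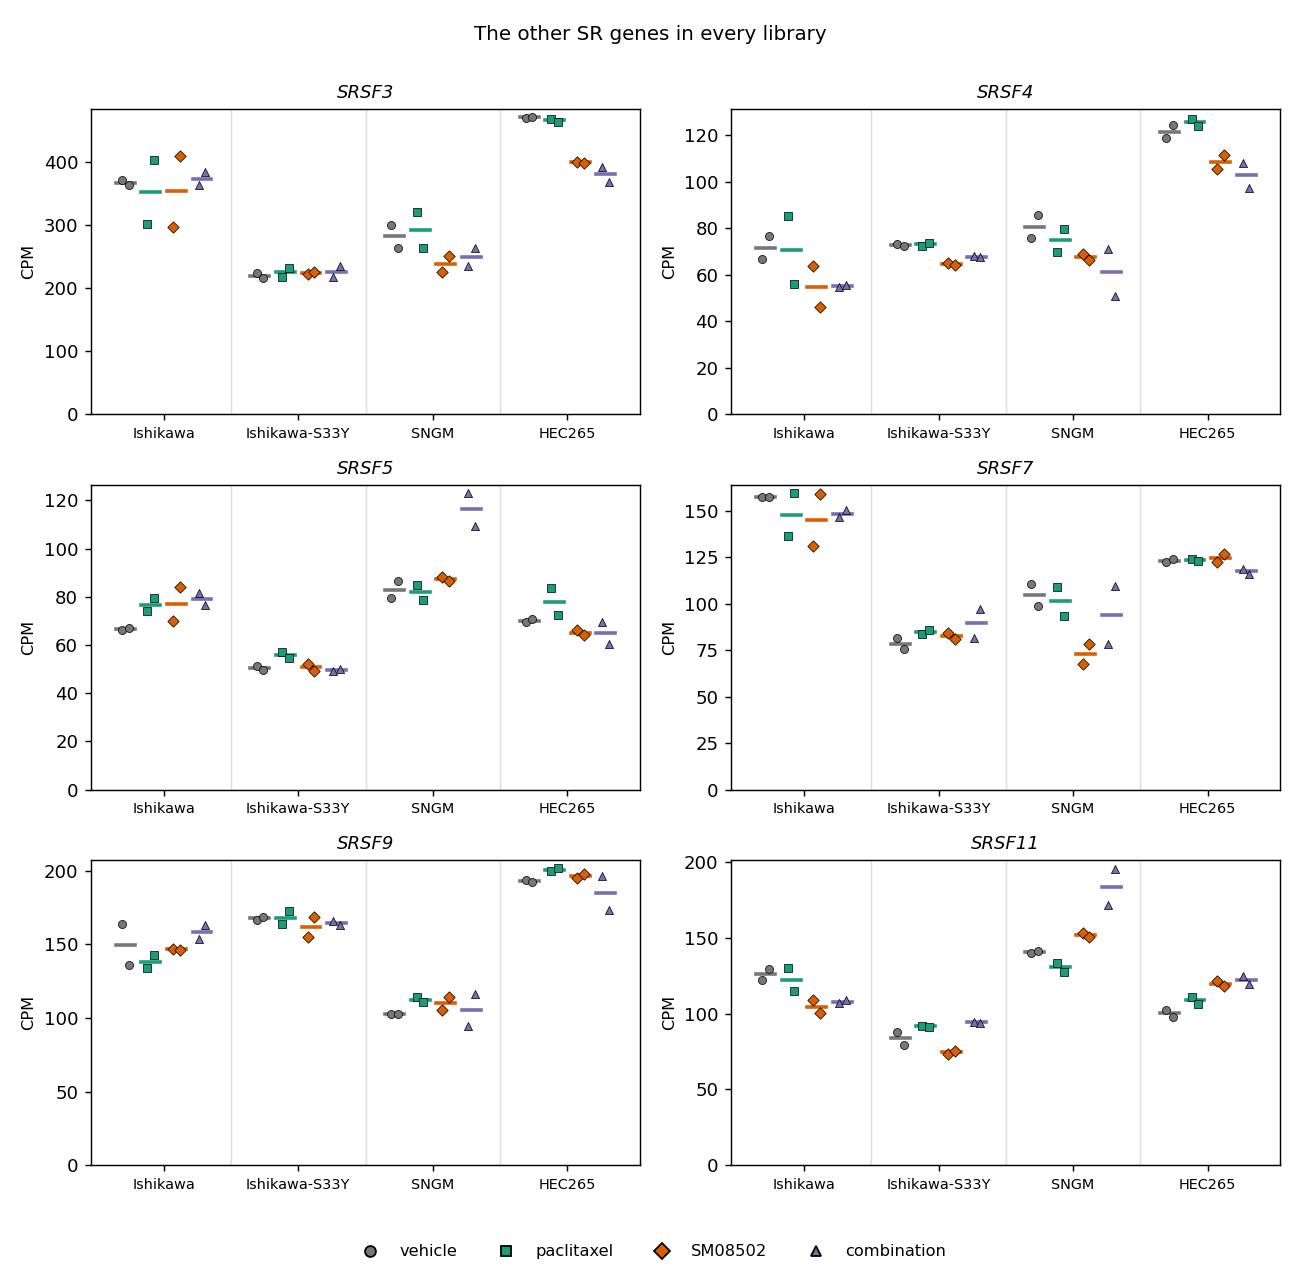
CPM of the other 6 SR genes, SRSF3, SRSF4, SRSF5, SRSF7, SRSF9 and SRSF11, in each of the 32 libraries, by line and treatment, with the mean of each pair as a short line. SRSF5 in SNGM stands out on the combination (123 and 109.5 CPM), and SRSF11 falls on SM08502 in Ishikawa and rises in HEC265.

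With both drugs together, 7 of the 10 SR genes were called against vehicle over the mean of the lines: SRSF5, SRSF6, SRSF10 and SRSF11 higher and SRSF1, SRSF2 and SRSF4 lower. Of all genes, 29% were called higher and 20.1% lower. The median log2 change of the 10 was -0.01, beside 0.04 over all genes. SRSF2 changed by -0.38 ± 0.06 (SE), SRSF1 by -0.17 ± 0.05 and SRSF10 by 0.40 ± 0.05. SRSF11 changed by 0.15 (adjusted p = 0.00465, limma). Those calls and that of SRSF6 held under all 26 alternatives. By line, HEC265 had 2 called higher and 0 lower (background 12.4% and 7.16%), SNGM 4 and 1 (10.8% and 7.54%), Ishikawa-S33Y 2 and 2 (24% and 18%) and Ishikawa 2 and 2 (11.6% and 11.2%). SRSF2 was called in 3 lines, with changes of -0.36 in SNGM, -0.33 in Ishikawa-S33Y and -0.51 in Ishikawa. The SNGM call was kept under 8 of 15 alternatives. It was lost without the first combination library (-0.16) and without the first vehicle library (-0.26), among others. The Ishikawa-S33Y call was lost without the first vehicle library (-0.25, adjusted p = 0.214, limma) or either combination library. SRSF1 was called in Ishikawa (-0.27) and Ishikawa-S33Y (-0.44), and the Ishikawa call was lost without the first vehicle library (-0.14, adjusted p = 0.419, limma) or either combination library. Both drug arms were compared with the same vehicle libraries, so their changes are not independent of each other. The counts were 2 in Ishikawa without the second combination library, 3 in SNGM without the second combination library, and 0 in HEC265 without any 1 library.

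Paclitaxel alone called no SR gene in any line or over the mean of the lines, by limma on log2(CPM + 1) and by limma voom on recovered reads. At an unadjusted p under 0.05 there were 0 in each line and 1 over the mean, SRSF5, with a log2 change of 0.12. Of all genes, 0.00588% were called in HEC265, 0.0176% in SNGM, 0% in Ishikawa-S33Y, 0.0118% in Ishikawa and 0% over the mean, so the background was near 0 too. The SR changes in Ishikawa ran from -0.21 for SRSF2 to 0.20 for SRSF5, and in HEC265 from -0.03 to 0.15.

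Adding paclitaxel to SM08502 likewise called no SR gene in any line by either method, against a background of 0.00588% in HEC265, 0.253% in SNGM, 0.129% in Ishikawa-S33Y and 0% in Ishikawa. At an unadjusted p under 0.05 there were 0, 6, 3 and 0 in that order. In SNGM these were SRSF2, SRSF5, SRSF6, SRSF7, SRSF10 and SRSF11, each higher with both drugs by 0.27 to 0.41. Without the first SNGM combination library, which leaves the library of 1.61 M reads, 6 SR genes were called in SNGM. The departure of the combination from additivity, over the mean of the lines, called none (background 0%), with 4 at an unadjusted p under 0.05 and 0 by limma voom.

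Within a library, the ratio of SRSF6 to SRSF2 does not depend on the library's scaling. The pair was chosen among 3 computed after the values were seen, and the ratio is of reads not set per length, so only its change between treatments is read. In Ishikawa it was 0.852 and 0.753 on vehicle and 1.50 and 1.58 on SM08502, and in Ishikawa-S33Y 0.784 and 0.876 against 1.89 and 1.82. In SNGM it was 0.393 and 0.465 against 0.772 and 0.595, and in HEC265 0.567 and 0.595 against 0.876 and 0.894. The groups did not overlap in any line. Since the pair joins the SR gene that rose most with the one that fell most over the mean of the lines, the ratio restates their changes and supports nothing further, and in SNGM it follows SRSF2 alone, where SRSF6 changed by 0.00. On paclitaxel it lay above both vehicle values in Ishikawa (0.972 and 0.930) and in HEC265 (0.656 and 0.625). It lay within the vehicle values in Ishikawa-S33Y (0.869 and 0.848), and in SNGM (0.459 and 0.470) 1 of the 2 values lay above them.

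**Figure D5:**
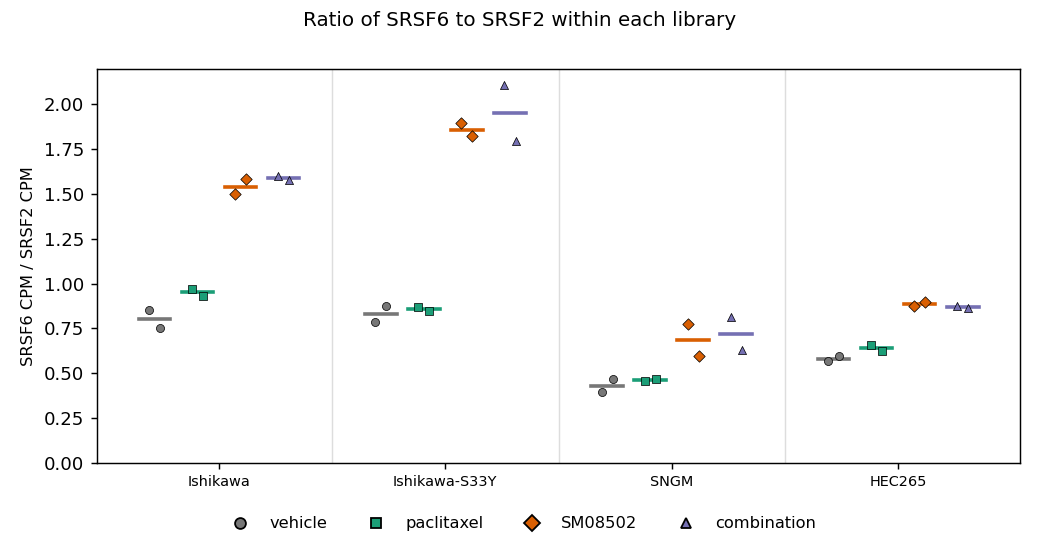
SRSF6 CPM divided by SRSF2 CPM within each of the 32 libraries, by line and treatment, with the mean of each pair as a short line. Values on SM08502 and on the combination lie above the vehicle and paclitaxel values of the same line in every line, from 0.595 to 0.772 on SM08502 in SNGM to 1.82 to 1.89 in Ishikawa-S33Y.

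A list of 25 other genes of SR protein control (CLK, SRPK and DYRK1 kinases, the importin TNPO3, NXF1, PP1 phosphatase subunits, SRSF8, SRSF12, TRA2 proteins and nonsense-mediated decay factors) was tested beside them. On SM08502, 14 of 25 were called over the mean of the lines, 11 higher and 3 lower, beside the 22.6% and 15.8% of all genes given above, and their median log2 change was 0.12. The CLK kinases, which phosphorylate SR proteins, rose: CLK1 by 1.53, CLK4 by 1.46, CLK3 by 1.10 and CLK2 by 0.54, and each was called in every line. UPF3B, a nonsense-mediated decay factor, rose by 0.52 over the mean and was called in Ishikawa-S33Y (1.00) and HEC265 (0.72). Those 5 were the called genes with a change of at least 0.5. By line, HEC265 had 7 of the 25 called, 6 higher and 1 lower (background 9.27% and 5.39%). SNGM had 5, 4 higher and 1 lower (3.8% and 4.06%). Ishikawa-S33Y had 11, 10 higher and 1 lower (18.5% and 10.6%), and Ishikawa 7, 5 higher and 2 lower (6.5% and 8.68%). The largest rise of an SR gene on SM08502, that of SRSF6 in Ishikawa-S33Y, was 0.59.

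Likeness was taken as Pearson's r over the 16 group means after removing each line's mean, among 10423 genes with a mean log2(CPM + 1) of at least 3. The points share lines and vehicle groups, and r is a description. SRSF6 was most like CLDN12 (r = 0.99), a claudin, and SRSF10 most like ZBTB6 (0.98), a zinc finger protein. Among the SR genes SRSF6 and SRSF10 were nearest to each other (0.97), and SRSF2 and SRSF4 likewise (0.83), while SRSF1 was nearest to SRSF2 (0.78). SRSF1 was most like CCNE1 (0.97), the cyclin E of the G1 to S transition, and SRSF4 most like AKR1B1 (0.97), an aldose reductase. Other highest values were SRSF3 with ATF1 (0.98), SRSF5 with MBTD1 (0.91), SRSF7 with WDR48 (0.87), SRSF11 with PARP3 (0.87) and SRSF9 with CPOX (0.72).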

How the data were processed

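Per the labels' protocols, ribosomal RNA was depleted with FastSelect and the KAPA mRNA HyperPrep kit gave the libraries. The submitters' processing notes name bcl2fastq, kallisto, STAR and GRCh38. Which program counted the reads, the annotation and the strand setting are not given in the sources used here.

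The authors deposited log10 of CPM plus 1 for 35238 genes in 32 libraries. Back-transformed values came out as whole reads for 100% of values (tolerance 0.1), which gave the depth. The planned test assumed log2 values, so CPM was recovered and log2(CPM + 1) tested. On this scale the folds of low genes come out too small.

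Samples were grouped by line and treatment from the labels. limma 3.58.1 (R 4.3.3) was fitted to 17011 genes with 1 mean for each of 16 groups, an intensity trend and 16 residual degrees of freedom. In each of 33 comparisons p was adjusted by Benjamini-Hochberg over all genes. The fit was tested on simulated data that had the same spread setting in all groups, so the unequal spread seen here was not covered. Alternatives changed the filter, pseudocount, scaling, trend, samples or block, and used voom.

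The genes and lists were chosen with earlier results of these data known. All SR genes are named. Listed pathway genes are named when called over the mean of the lines with a change of at least 0.5, and the most alike gene is named for each SR gene, except 1 that is not reported here. The 6 pairwise differences of SM08502 effects, the length score as a covariate, and leaving out both shallow libraries were added after seeing the data. Splicing event tables were not analysed here.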

Additional observations from a re-analysis of the deposited data

Results flagged for a closer look

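The SM08502 effect on SRSF6 differed among the 4 lines (F test in limma, adjusted p = 0.0127), called under all 26 alternatives. It was smaller in SNGM than in Ishikawa-S33Y, with log2 changes of 0.00 and 0.59 (difference -0.59, adjusted p = 0.00363), called under all 19 alternatives.

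The effect on SRSF11 also differed among lines (F test in limma, adjusted p = 0.0136), called under 25 of 26 alternatives. The change in HEC265 (0.26) exceeded that in Ishikawa (-0.27) by 0.52 (adjusted p = 0.0201) and that in Ishikawa-S33Y (-0.17) by 0.42 (adjusted p = 0.0375), called under 11 and 9 of 19 alternatives.

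For SRSF7 the effect in SNGM (-0.52) lay below that in Ishikawa-S33Y (0.07) by -0.59 (adjusted p = 0.0470, limma), called under 4 of 19 alternatives. For SRSF1 the effect in HEC265 (0.00) exceeded that in Ishikawa-S33Y (-0.47) by 0.47 (adjusted p = 0.0385, limma), called under 9 of 19. The F test was not called for these 2 genes (adjusted p = 0.0995 and 0.0695).

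Doses differ between these lines, and their part in the differences was not tested.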

How the results depend on the processing

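Of 100 drug changes of SR genes, 40 were called. Their calls were kept in 638 of 732 values under alternatives and lost in 94, and none turned direction. Of 988 values of uncalled changes, 44 became called in the same direction and 0 in the other.

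Counts of SR genes called on SM08502 in Ishikawa were 2 after median re-centring, 2 without the intensity trend and 0 with that line fitted alone. In SNGM they were 1 after re-centring and 0 alone, and in HEC265 0 after re-centring, 0 without the trend, 0 with the replicate block, 5 alone and 4 with the length score. On the combination they were 0 alone in Ishikawa, 1 alone in SNGM, and in HEC265 1 after re-centring, 4 after quantile normalization, 6 alone and 4 with the length score. Re-centring moved all HEC265 combination changes by -0.11 and SM08502 changes by -0.10. For the combination against SM08502 they were 1 without a filter, 1 after quantile normalization, 1 with the line alone and 2 with the length score in Ishikawa-S33Y, and 1 without a filter and 2 with the score in SNGM. For SM08502 effects that differ among lines they were 1 after re-centring and 4 with voom, without both shallow libraries or with the length score. On vehicle, the length score gave 4 for SNGM and for HEC265 against Ishikawa.

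Leaving out 1 library gave 1 to 6 in Ishikawa, 0 to 2 in SNGM and 0 in HEC265 on SM08502, and 2 to 3, 3 to 5 and 0 on the combination. It gave 0 to 6 for the combination against SM08502 in SNGM, and on vehicle 4 to 7 for SNGM against Ishikawa, 4 for HEC265 against Ishikawa and 4 to 7 for SNGM against Ishikawa-S33Y.

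Among vehicle differences called as reported or under the alternative, those that turned sign with the length score were SRSF3 (0.39) and SRSF10 (0.045, from -0.31) for SNGM against Ishikawa, SRSF4 (-0.10, from 0.76) and SRSF7 (0.083, from -0.35) for HEC265 against Ishikawa, and SRSF4 for Ishikawa-S33Y (-0.51) and SNGM (-0.87) against Ishikawa and for SNGM against Ishikawa-S33Y (-0.37). SRSF6 turned for HEC265 against Ishikawa after re-centring (0.013) and against Ishikawa-S33Y after quantile normalization (-0.05). Differences called in neither that turned were SRSF11 with the length score (SNGM against Ishikawa, -0.04), SRSF1 (-0.05) and SRSF5 (-0.04) for HEC265 against Ishikawa and SRSF9 (-0.05) for HEC265 against Ishikawa-S33Y after quantile normalization, and with 1 Ishikawa vehicle library left out SRSF1 for HEC265 against Ishikawa and SRSF4 for Ishikawa-S33Y against Ishikawa. The cause was not tested.

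The labels do not say that replicate numbers mark a shared plating, and same-numbered deviations correlated at -0.65 to 0.86, so the replicate block, which took the HEC265 count on SM08502 to 0, is no main result. The planned edgeR alternative was not run because the deposited unit is a logarithm, and voom on recovered reads stood in for it.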
